A study of Mus musculus with 4 samples.

Results

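The replication-dependent histone genes were followed through every cell type captured in spleen samples of mice with leukemia, from dividing T cells (Tc) to maturing erythroid cells. All genes whose symbol starts with Hist1h, Hist2h, Hist3h or Hist4h were taken, which gave 67 members of the 32285 genes in the files. BALB/c recipients had lethal total body irradiation, WEHI-3B acute myeloid leukemia (AML) cells and a bone marrow (BM) transplant from C57BL/6 donors, and Tc of the donors followed on day 2. Spleens were taken on day 23, and Tc were enriched with a pan-Tc kit, and an oligo-tagged Ab marked cells of the H-2Kb donor. The 4 single-cell libraries came from 2 samples with Havcr2fl/fl donor cells and 2 with Havcr2fl/fl;E8icre/+ donor cells. Both genotypes carry the floxed Havcr2 alleles, and only the second carries cre, which the E8i element drives in CD8+ cells. Recipients of both genotypes had the same treatment. The labels do not say whether the samples of a group came from separate mice, so each p-value measures only the spread between these samples.

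Histone proteins package DNA: an octamer of H2A, H2B, H3 and H4 makes the nucleosome core, and H1 binds the linker DNA between cores. The genes studied here lie in clusters and are switched on while DNA is replicated, so that new DNA can be packaged, whereas replacement histones such as H2afz and H3f3a are made at all times. Most replication-dependent histone mRNAs end in a stem-loop rather than a poly(A) tail. The kit used here primes cDNA on poly(A), so the counts are of the molecules that were captured this way, not of all histone mRNA.

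After filtering, 11507 cells remained, with 1204 to 4328 per library and a median of 5232 to 7454.5 unique molecular identifiers (UMIs) per cell. A UMI marks a captured RNA molecule, and levels are given as CPM, the UMIs of a gene per 1000000 UMIs, after adding up, library by library, all cells of a class. Pairs of libraries shared 1 to 10 cell barcodes. Cell classes were found by clustering without the members and were named from marker genes. Of these cells, 5671 were other Tc, 1070 cycling Tc, 1738 early, 897 intermediate and 613 late erythroid-like, and the rest belonged to 7 smaller named classes or were left unnamed. Among the unnamed was a cluster of 154 cells in which 99.4% had a UMI of a Cd3 gene of Tc, 3.62% of UMIs were globin and 8 of 11 late erythroid markers were raised, with a median of 18404 UMIs per cell. It made up 0.647 to 2.10% of the cells per library. A rule set after it was seen left it out of the late class, since no other cluster outside the Tc had over 20% such cells, and results on late cells are also given with it. The labels name the cells as T cells, and erythroid, myeloid and B lineage-like cells were captured with them. Of the 8 Tc markers, the summed level was 6026 to 6577 CPM in cycling Tc and 7839 to 8934 CPM in other Tc, against 8.09 to 13.2 CPM in early erythroid-like cells. Late erythroid markers summed to 1267 to 5172 CPM in cycling Tc and to 546 to 1055 CPM in other Tc, and their part in the results on Tc was not tested.

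The members held 1116756 of 131784957 UMIs, which is 0.847%. Of the 67 members, 65 had at least 1 UMI, 60 had at least 100 and 45 at least 1000, and the 2 with none were Hist1h2ba and Hist1h2aa, both known from the testis. A few genes dominated. Hist1h2ap, an H2A gene, held 30.2% of the member UMIs, Hist1h1b, which encodes a linker histone H1, 18.9%, Hist1h2ae (H2A) 9.61% and Hist1h1e (H1) 6.86%. The first 15 members together held 88.9%. By histone type, the 18 H2A genes held 47.4%, the 6 H1 genes 32.6%, the 13 H4 genes 7.46%, the 12 H3 genes 7.07% and the 18 H2B genes 5.48%. The shares are of captured molecules, and the 4 core types were far from equal. The 54 genes of the Hist1 cluster on chromosome 13 held 95.6%, the 10 Hist2 genes on chromosome 3 held 3.92%, the 2 Hist3 genes on chromosome 11 held 0.272% and Hist4h4, the only Hist4 gene, on chromosome 6, held 0.192%.

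The stem-loop that ends a histone mRNA could be read in the GENCODE M21 transcripts of 44 of the 67 members, after the stop codon. It has a stem of 6 base pairs and a loop of 4 bases, and 26 members share the same 16 bases. Sites of 5 of the 6 kinds, each from its most abundant member, and that of Hist1h1e are shown because these are the ends at which such mRNAs are normally cut. Capitals mark stem and loop, and the bases around them are in lower case.
Hist1h2ap: aaaaGGCTCTTTTCAGAGCCatc
Hist1h1e: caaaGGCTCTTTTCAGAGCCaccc
Hist1h4d: caaaGGCCCTTTTCAGGGCCacta
Hist1h3c: aaaaGGCTCTTTTAAGAGCCacct
Hist1h4i: taaaGGCCCTTTTTAGGGCCacca
Hist2h2ac: aaaaGGCTCTTTTTAGAGCCacca
The 26 members with the kind of Hist1h2ap and Hist1h1e include H1, H2A, H2B and H3 genes, and 7 H4 genes share the kind of Hist1h4d. The Hist1h2ap model (chr13:21833026-21833507, GRCm38, minus strand) stops 3 bases after its stem-loop, whereas that of Hist1h1e (chr13:23620629-23622558, minus strand) goes on for 1153 bases and that of Hist4h4 (chr6:136801553-136804415, minus strand) for 2445. The model of Hist1h1b (chr13:21779883-21780625, minus strand) has no bases after the stop codon and so no stem-loop. Some members are close copies: of the 60-base words in Hist1h2ap, 92.9% also occur in another gene, most in Hist1h2ao, which had 57 UMIs, so the 2 cannot be told apart with certainty. Hist1h1e shares exons on the same strand with Hist1h2be, and Hist3h2a shares them with Trim17, so the counts of these genes are uncertain.

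Promoters of 61 members were found in RefSeq (GRCm38.p6), each with 250 bases before and 50 after the start. CCAAT, the box that NF-Y binds, occurred on either strand in 52 of 61 (85.2%), against 37.4% of 32851 promoters of that length. Among the H4 genes it was in 3 of 12 (25%), and in the other types it was in every promoter. TATAAA was in 57.4% of the members and in 13.6% of all promoters. AAACACA, the box known from H1 promoters, was in 5 of 6 H1 genes (83.3%), in 14.8% of all members and in 7.18% of all promoters. The promoters of an H1, an H3 and an H4 gene that rose in cycling Tc are shown with these letters in capitals, on either strand: Hist1h1b (RefSeq H1f5, chr13:21780576-21780875, minus strand), Hist1h3b (H3c2, chr13:23752095-23752394, plus strand) and Hist1h4d (H4c4, chr13:23581318-23581617, plus strand).
Hist1h1b: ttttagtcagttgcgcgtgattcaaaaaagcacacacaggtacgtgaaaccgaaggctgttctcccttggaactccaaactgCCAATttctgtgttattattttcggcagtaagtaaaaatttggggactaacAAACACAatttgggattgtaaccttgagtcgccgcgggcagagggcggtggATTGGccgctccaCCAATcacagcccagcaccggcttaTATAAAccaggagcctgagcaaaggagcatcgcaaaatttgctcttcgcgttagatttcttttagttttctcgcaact
Hist1h3b: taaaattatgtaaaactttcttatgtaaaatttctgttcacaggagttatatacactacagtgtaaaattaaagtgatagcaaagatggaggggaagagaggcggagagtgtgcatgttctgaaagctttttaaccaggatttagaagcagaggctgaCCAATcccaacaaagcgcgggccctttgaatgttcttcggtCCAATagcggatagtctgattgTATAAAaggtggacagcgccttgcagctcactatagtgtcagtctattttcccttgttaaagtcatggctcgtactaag
Hist1h4d: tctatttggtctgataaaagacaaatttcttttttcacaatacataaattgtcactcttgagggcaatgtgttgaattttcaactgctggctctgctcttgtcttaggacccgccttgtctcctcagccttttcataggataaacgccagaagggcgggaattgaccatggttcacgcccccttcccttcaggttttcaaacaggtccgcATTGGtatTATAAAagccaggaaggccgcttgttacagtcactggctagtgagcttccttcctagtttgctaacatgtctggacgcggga
The Hist1h1b window holds all 3 motifs, and those of Hist1h3b and Hist1h4d hold CCAAT and TATAAA. A match describes the letters only.

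The libraries differed in the mix of histone mRNAs before any comparison of cells. In cycling Tc, Hist1h2ap was at 2850.4 and 8788 CPM in Havcr2fl/fl;E8icre/+ replicates 1 and 2 and at 5665 and 1654 CPM in Havcr2fl/fl replicates 1 and 2. Hist1h1b was at 1957, 2419.9, 1627 and 3366 CPM in the same order. The library with the least Hist1h2ap thus had the most Hist1h1b. Over all classes with at least 20 Hist1h1b UMIs, the Hist1h2ap to Hist1h1b ratio had a median of 1.54 and 4.14 in the Havcr2fl/fl;E8icre/+ replicates and of 4.32 and 0.491 in the Havcr2fl/fl replicates. In Havcr2fl/fl replicate 2 it stayed between 0.282 and 0.799 in 13 classes, in Tc as in erythroid, myeloid and B lineage-like cells. The ratio of all core to all linker histone UMIs had medians of 2.04, 4.19, 3.98 and 0.980. By the labels the divide crossed the genotypes, with replicate 2 of one and replicate 1 of the other at the high end. These labels carry a doubt. In cycling CD8+ Tc, Havcr2, the targeted gene, was at 54.1 CPM in the library labelled Havcr2fl/fl;E8icre/+ replicate 1 and at 44.3 CPM in that labelled Havcr2fl/fl replicate 1. Whether the labels are right was not tested.

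**Figure D1:**
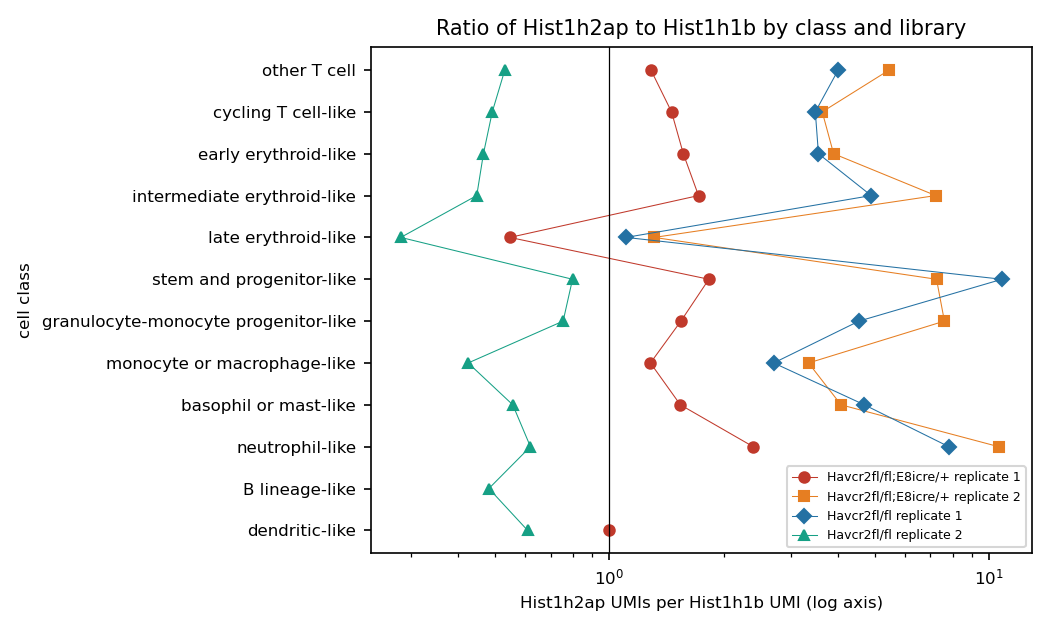
Hist1h2ap UMIs per Hist1h1b UMI (log axis) in each cell class, with 1 line per library. The line of Havcr2fl/fl replicate 2 stays left of 1 in every class shown, and those of Havcr2fl/fl;E8icre/+ replicate 2 and Havcr2fl/fl replicate 1 stay right of 1.

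Single genes were then set side by side in 2 libraries, picked because they lay at opposite ends of the Hist1h2ap to Hist1h1b ratio. Both of these genes are among those counted, so the counts describe the split and do not test it. Shares of all genes are not given for this pair. Between Havcr2fl/fl;E8icre/+ replicate 2 and Havcr2fl/fl replicate 2, cycling Tc had higher CPM in the first for 43 of 50 core histone genes (median log2 ratio 0.97) and for 1 of 5 H1 genes (median -0.30). In early erythroid-like cells these were 41 of 47 (median 1.00) and 1 of 5 (median -0.24). Of the 5 H1 genes, 4 were highest in Havcr2fl/fl replicate 2 in cycling Tc, as was 1 of the 50 core genes. For the H1 genes this varied between classes. That library was highest for 4 of 5 in early erythroid-like and 5 of 5 in basophil or mast-like cells. It was highest for 2 of 5 in intermediate erythroid-like cells and 0 of 5 in monocyte or macrophage-like, stem and progenitor-like and granulocyte-monocyte progenitor-like cells. Havcr2fl/fl replicate 2 was also the library with the most cells, doublet calls (109 of 125) and barcodes, and other Tc in it had the lowest median depth (2640 UMIs per cell, against 3888 to 5993). Their part in the split was not tested. Every main comparison of cell classes was made within the libraries.

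The summed level of all members differed between the cell classes, and within some classes it also differed widely between libraries. In neutrophil-like cells it went from 1179 to 17788 CPM. Other Tc had 489 and 898 CPM in the Havcr2fl/fl;E8icre/+ replicates and 622 and 807 CPM in the Havcr2fl/fl replicates (704 ± 183, SD, n = 4). Cycling Tc had 10355, 20885, 14367 and 10961 CPM (14142 ± 4829.6). Every library of cycling Tc was above every library of other Tc. Early erythroid-like cells were at 9102 ± 3352 CPM, intermediate ones at 38530 ± 23985 CPM and late ones at 1964 ± 584 CPM. The intermediate cells thus had the highest mean of the 13 classes, with 17144 to 67876 CPM in the 4 libraries, and in each library they were above the cycling Tc. The ranges of both classes over the libraries overlapped. With the cluster of Cd3-positive cells the late mean was 5945 CPM, and with a stricter cell filter (at least 1000 genes per cell and at most 5% mitochondrial UMIs) it was 3984 CPM. Outside the Tc and the erythroid stages, basophil or mast-like cells (13467 ± 4591 CPM) came first, then monocyte or macrophage-like cells (10417 ± 5310.3), stem and progenitor-like cells (6783 ± 2506), neutrophil-like cells (6645 ± 7531) and granulocyte-monocyte progenitor-like cells (5755 ± 2306). The range of each of these overlapped with that of the one named before it. By the phase calls described below, 51.9% of monocyte or macrophage-like cells were called S and 42.4% G2/M. In basophil or mast-like cells these were 27.1% and 46.3%. Without integration, a cluster of 350 cells led by F13a1, the first gene of the monocyte or macrophage-like cluster, was named granulocyte-monocyte progenitor-like. The border between these classes is therefore not firm. B lineage-like cells had the lowest mean (548 ± 642 CPM), with 181 to 1509 CPM and 2 cells in Havcr2fl/fl replicate 1. Dendritic-like cells had 8641 CPM in Havcr2fl/fl;E8icre/+ replicate 1 and 746 to 1738 CPM in the others.

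**Figure D2:**
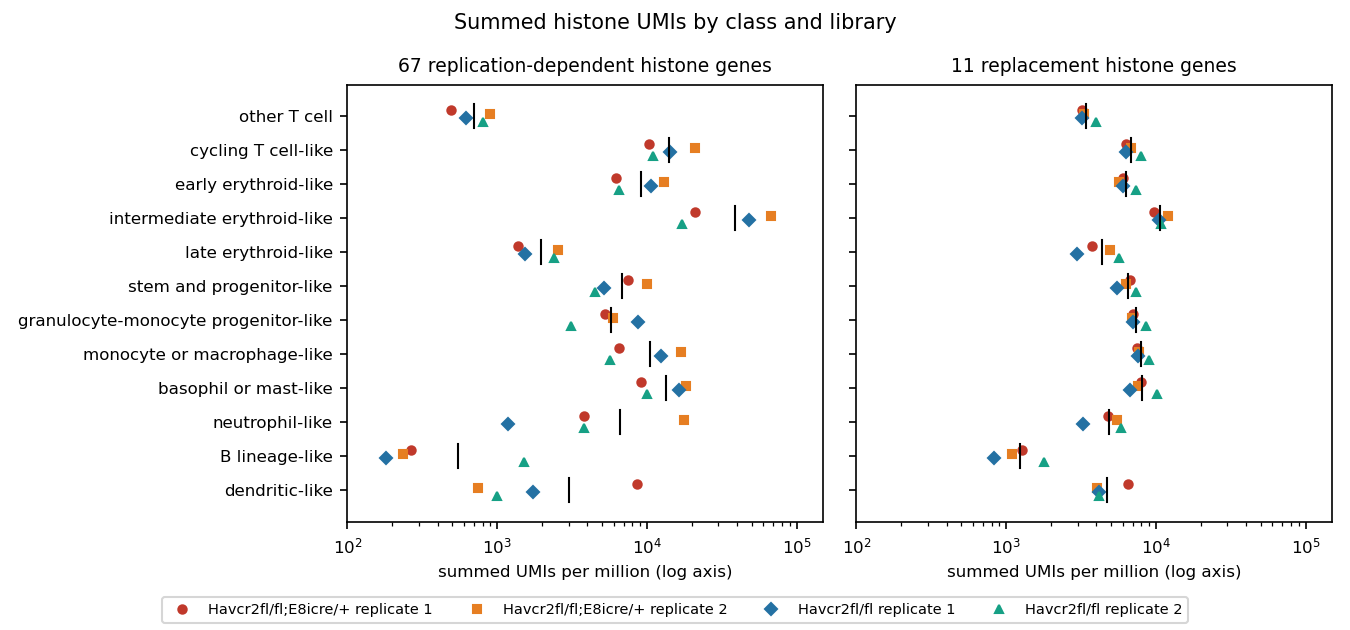
Summed level in CPM (log axis) of the 67 members (left) and of 11 replacement histone genes (right) in each named class, with 1 point per library and a bar at the mean of 4 libraries. The members span from 181 to 67876 CPM, and the replacement histones stay between 831 and 12024 CPM.

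The 11 replacement histone genes varied less. Their summed level was 3190.1 to 3956 CPM in other Tc, 6274 to 7944 in cycling Tc and 9663 to 12024 in intermediate erythroid-like cells. Other Tc thus had more replacement than replication-dependent histone UMIs in all 4 libraries, and cycling Tc had fewer. Early erythroid-like cells had 5717 to 7338 CPM of replacement histones, a range that overlapped with that of cycling Tc.

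In single cells, cycling Tc were again above other Tc, but not every class kept its place. The share of cells with a member UMI, after each cell was thinned to 2000 UMIs, was 88.1% (95% Wilson interval 84.7 to 90.8) to 93.0% (89.7 to 95.3) per library in cycling Tc and 57.0% (54.7 to 59.3) to 76.1% (74.0 to 78.2) in other Tc. Without thinning it was 98.7% to 100% and 76.2% to 94.8%, at median depths of 9076 and 4133 UMIs per cell. B lineage-like cells, the class with the lowest summed level, had 36.4% to 59.1% thinned. Neutrophil-like cells had 55.6% to 86.7% thinned, a range that overlapped with that of other Tc, although their mean summed level was higher. Thinning left out 8 cycling Tc and 426 other Tc with fewer UMIs. Intervals cover counting error only. Cells in which at least 1% of all UMIs came from members made up 28.0% (19.5 to 38.6) to 38.7% (33.6 to 44.0) of cycling Tc and 70.6% to 86.3% of intermediate erythroid-like cells. In other Tc they were 1 cell in each of 2 libraries and none in the other two, with the highest share at 0.0672% (0.0119 to 0.380) in Havcr2fl/fl replicate 2. UMIs of free RNA were not separated from those of the cells, and the thinned shares of other Tc and B lineage-like cells overlapped, so the share in other Tc is not read as one of cells that express a member.

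**Figure D3:**
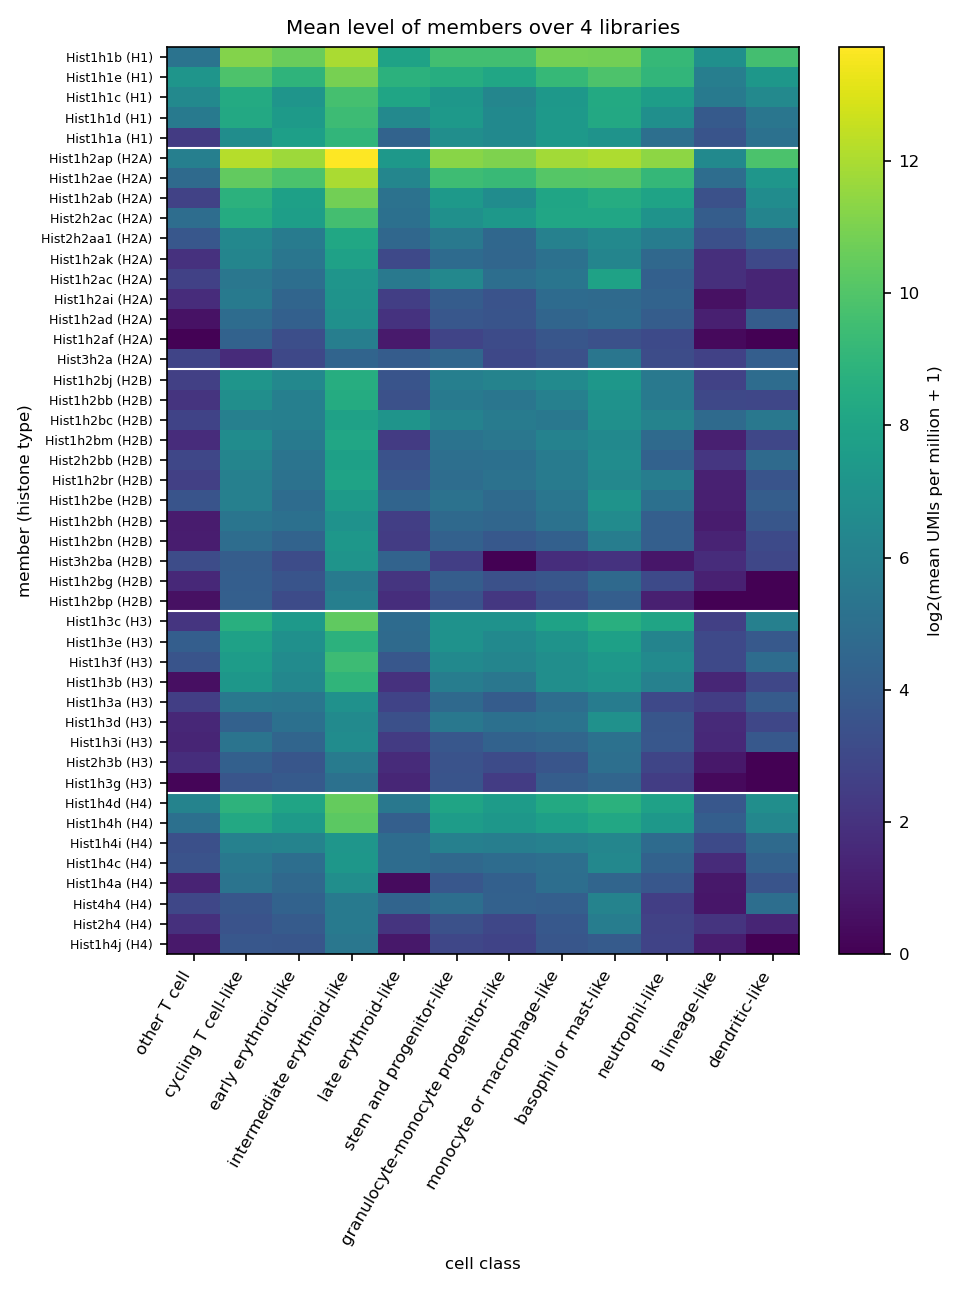
Mean CPM over 4 libraries, as log2(CPM + 1) in color, of the members with at least 1000 UMIs (rows, ordered by histone type) in each named class (columns). The column of intermediate erythroid-like cells is the brightest, and Hist1h2ap, Hist1h1b and Hist1h2ae are the brightest rows.

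Cycling Tc were compared with other Tc to ask which members rise when a Tc divides. Of 67 members, 56 passed the filter on low counts, and 55 of them were higher and 1 lower by edgeR's quasi-likelihood test at a Benjamini-Hochberg adjusted p under 0.05. Of all 10381 genes tested, 30.5% were called higher and 26.7% lower. The median log2 difference was 3.82 over the members and -0.01 over all genes. The libraries of the 2 classes did not overlap for 55 of the 56, against 40.5% of all genes tested. The filter keeps a gene with enough counts in 1 class, so a member could enter through cycling Tc alone. The counts by type below share this limit. Means of at least 5 CPM were reached by 23 members in other Tc and by 55 in cycling Tc. With no filter on low counts, 60 of 62 members were higher and 1 lower, as were 2994 and 3323 of 18132 genes.

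The linker histones, which compact the fiber between nucleosomes, all rose but by unequal amounts. Hist1h1b went from 22.9, 19.1, 15.2 and 89.9 CPM in other Tc to the levels given above in cycling Tc, a log2 difference of 6.45 ± 0.23 (SE, adjusted p = 5.08e-11). Hist1h1a rose from 4.27 ± 3.47 (SD, n = 4) to 106 ± 28.9 CPM (log2 4.95 ± 0.17, adjusted p = 3.41e-11). Hist1h1e, Hist1h1d and Hist1h1c rose less, by 2.91, 2.88 and 2.14 on the log2 scale. Hist1h1e was the most abundant member in other Tc (113, 185, 90.0 and 185 CPM), and Hist1h1c was the next (86.0 ± 21.7 CPM). In cycling Tc they reached 938 ± 232 and 336 ± 92.9 CPM, where 3 members were above the first and 8 above the second. The linker genes held 31.8% to 57.6% of member UMIs in other Tc and 20.3% to 50.5% in cycling Tc. The ranges overlapped, but within each library the linker share was lower in cycling Tc. Core to linker ratios were 0.962, 1.45, 2.14 and 0.735 in other Tc and 2.05, 3.89, 3.92 and 0.980 in cycling Tc.

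Of the H2A genes, 13 rose and 1 fell of 14 tested, with a median log2 difference of 4.92. Hist1h2ap was at 29.4, 104, 60.8 and 47.7 CPM in other Tc and rose by 6.38 ± 0.20 on the log2 scale (adjusted p = 1.58e-11). Hist1h2ae rose from 25.4 ± 10.0 to 1385 ± 551 CPM (log2 5.98 ± 0.19) and Hist1h2ab from 5.55 ± 3.66 to 450.4 ± 185 CPM (log2 6.69 ± 0.28). Hist2h2ac, the most abundant Hist2 gene, rose by 3.80 ± 0.09 on the log2 scale. Hist1h2af had 191 UMIs in cycling Tc and 1 UMI in other Tc, too few for a fold. Hist3h2a was the one member that fell. It was at 2.47, 3.62, 0 and 2.71 CPM in cycling Tc and at 5.41, 6.04, 4.18 and 8.49 CPM in other Tc, and the groups did not overlap (log2 -1.10 ± 0.34, adjusted p = 0.0134). It had 29 UMIs in cycling Tc and shares exons with Trim17.

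All 16 H2B genes tested rose, by 1.14 to 5.76 on the log2 scale. The smallest change was that of Hist3h2ba, the other Hist3 gene, from 8.17 ± 1.63 to 15.4 ± 2.47 CPM (log2 1.14 ± 0.16, adjusted p = 5.17e-05). All 9 H3 genes tested rose. The largest log2 difference among the members tested was that of Hist1h3b, which had too few UMIs in other Tc for a firm fold. Hist1h3b was at 0 to 0.708 CPM in other Tc, with 10 UMIs in all, and at 90.7, 281, 183 and 61.0 CPM in cycling Tc (log2 8.85 ± 0.21, adjusted p = 4.16e-12). Hist1h3c rose from 3.31 ± 1.34 to 407 ± 148 CPM (log2 7.28 ± 0.20), and Hist1h3e and Hist1h3f rose by 4.02 and 4.33. Genes for the same protein type thus differed in how far they rose.

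All 12 H4 genes tested rose, by 0.99 to 4.75 on the log2 scale. Hist1h4d, the most abundant H4 gene, rose from 68.4 ± 33.0 to 463 ± 157 CPM (log2 2.99 ± 0.08, adjusted p = 8.00e-12) and Hist1h4h from 32.5 ± 16.6 to 310.0 ± 115 CPM (log2 3.48 ± 0.09). Hist4h4 changed least among the members that rose. It was at 8.24, 18.1, 11.2 and 8.59 CPM in cycling Tc and at 6.41, 6.26, 5.06 and 8.26 CPM in other Tc, higher in cycling Tc in 4 of 4 libraries with overlapping ranges (log2 0.99 ± 0.25, adjusted p = 0.00433).

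**Figure D4:**
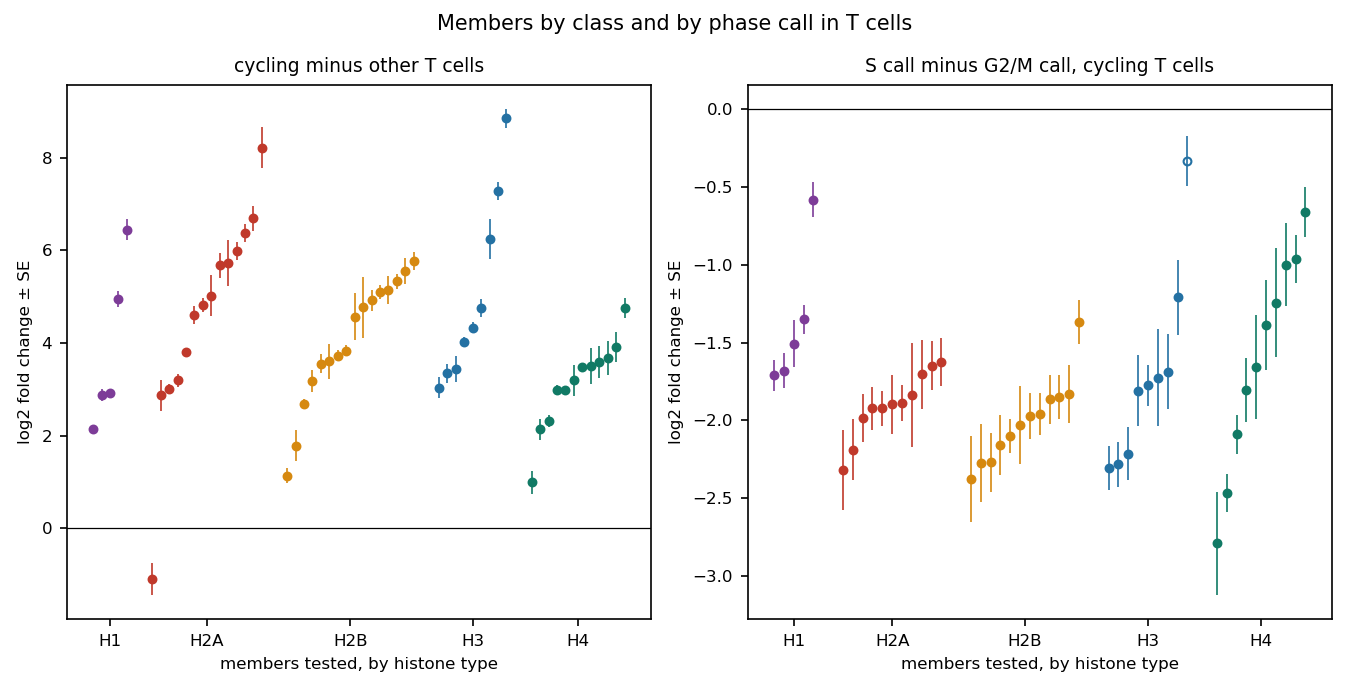
Log2 differences ± SE of the members tested, by histone type: cycling minus other Tc (left) and cells called S minus cells called G2/M within cycling Tc (right). Filled points passed the adjusted p of 0.05. On the left 55 of 56 lie above 0, with Hist3h2a below, and the H2A point near 8 is Hist1h2af, with 1 UMI in other Tc; on the right all 47 lie below 0.

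Genes that serve histone supply rose too. Of the replacement histones, 8 of 9 tested were higher and none lower, with the largest steps in H2afx (log2 3.31 ± 0.07), the centromeric Cenpa (2.89 ± 0.10) and H2afz (2.05 ± 0.06). Of 14 genes for histone mRNA transcription, 3' processing and decay, 13 were higher and none lower, among them Slbp, which binds the stem-loop (1.51 ± 0.09), Eri1, which trims it (1.32 ± 0.07), and E2f1 (3.74 ± 0.19). Of 15 genes for histone chaperones and acetylation, 14 were higher and none lower, such as the H3-H4 chaperone genes Asf1b (4.40 ± 0.13), Chaf1a (3.64 ± 0.17) and Nasp (2.07 ± 0.07). The median of each list, 0.59, 0.75 and 1.49, was below that of the members.

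Within cycling Tc, the members were not highest in the cells called S phase. The cycling Tc fell into 2 clusters. One, of 599 cells, was led by the immunoglobulin genes Iglc1 and Ighg2c and then by Ung, Dtl and Cdca7, genes of DNA replication, and had 1345, 3272, 1621 and 2349 CPM of members. The other, of 471 cells led by Cenpf, Plk1 and Nusap1, genes of mitosis, had 16627, 37565, 33288 and 18518 CPM. Phase was called from lists of S and G2/M genes that hold no member. Cells called S had 5228, 11832, 4252 and 6148 CPM, cells called G2/M had 15901, 34388, 29777 and 16721 CPM, and cells called G1 had 1029 ± 159 CPM. In each library the G2/M call was the higher. The 8 B lineage markers summed to 6.75 to 25.3 CPM in cycling Tc and to 10.3 to 40.3 CPM in other Tc, and the part of the immunoglobulin UMIs was not tested.

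Of 47 members tested, 46 were lower in the S call than in the G2/M call and none was higher, against 9.64% of 8036 genes called lower. The median log2 difference was -1.84 over the members and 0.01 over all genes. Of the 47, 35 had libraries that did not overlap, against 13.2% of all genes tested. Hist1h2ap was at 1438, 4751, 1416 and 869 CPM in the S call and at 4402, 14786, 12108 and 2591 CPM in the G2/M call, higher in the latter in 4 of 4 libraries with overlapping ranges (log2 -1.98 ± 0.16, adjusted p = 1.25e-08). The largest differences were those of the H4 genes Hist1h4k (-2.79 ± 0.33) and Hist1h4h (-2.47 ± 0.12), the H2B gene Hist3h2ba (-2.37 ± 0.28), the H2A gene Hist1h2af (-2.32 ± 0.26) and the H3 gene Hist1h3c (-2.31 ± 0.14). The smallest among the linker histones was that of Hist1h1a, at -0.58 ± 0.11 (adjusted p = 0.00107), and the member that did not pass the test was Hist1h3a, at -0.33 ± 0.16 (adjusted p = 0.151).

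A finer order was obtained by sorting the cycling Tc of each library into 5 equal bins by the G2/M score minus the S score. The mean level of the members was 3389.6, 5633, 13198, 21926 and 23148 CPM from the first to the last bin. Along the bins Mcm5 went from 286 to 74.9 CPM, Ung from 78.2 to 0.445 CPM and the replication clamp gene Pcna from 629 to 111 CPM. These are genes of the S list, so their fall was built into the sorting. The mitotic genes Plk1 and Ccnb1, which are in neither list, went from 6.69 to 250.4 and from 11.7 to 259 CPM. Top2a, a G2/M list gene, was at 353, 276, 564, 1058 and 1380.1 CPM. In the middle bin, where the members stood at 13198 CPM, Plk1 was at 47.3 CPM and Ccnb1 at 28.9 CPM, and the last 2 bins differed by less than the spread of the libraries (SD 6740.3 and 9373). Of 944 cells with an S or G2/M call, 70 (7.42%) had scores within 0.1 of each other. The calls rank cells by list genes and do not measure DNA content. Of the replacement histones, 6 of 9 were lower in the S call and none higher, with H2afx at -2.67 ± 0.10 and Cenpa at -2.73 ± 0.11. E2f1 was higher in the S call by 2.06 ± 0.18, Casp8ap2 by 0.85 ± 0.09 and Slbp by 0.56 ± 0.09, 3 of 13 tested in the mRNA list (of all genes 9.88% were higher), and Sympk was lower. Of the chaperone list, 6 of 14 were higher, Mcm2 by 1.44 ± 0.09 and Chaf1b by 1.12 ± 0.15 among them, and Asf1b was lower (log2 -0.47).

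The same calls gave another picture in early erythroid-like cells. Cells called S had 7127, 14338, 10056 and 7314 CPM of members, and cells called G2/M had 5527, 12428, 11980.1 and 5853 CPM. The S call was higher in 3 of 4 libraries. Of 58 members tested, 17 were higher and 2 lower in the S call (7.45% and 7.36% of 9449 genes), with a median log2 difference of 0.22. Hist1h1b was higher in the S call by 0.47 ± 0.06 (adjusted p = 1.94e-05), and Hist1h1a by 0.80 ± 0.07. When the difference between the calls was itself compared between cycling Tc and early erythroid-like cells, 55 of 56 members were lower in cycling Tc (6.32% of 9694 genes were called lower), with a median of -2.02. For Hist1h2ap this difference of differences was -1.97 ± 0.20 (adjusted p = 1.00e-07) and for Hist1h1b -1.95 ± 0.20 (1.15e-07). Of the early erythroid-like cells, 23 were called G1 and 388 of 1715 (22.6%) had S and G2/M scores within 0.1, so the calls were less distinct there than in cycling Tc.

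Early erythroid-like cells were then set against cycling Tc, another large class of dividing cells. Of 57 members tested, 4 were higher and 37 lower (39.5% and 37.3% of 10225 genes), with a median of -0.66 over the members and 0.04 over all genes. The direction was not the same in both phase calls. In cells called S, the summed level was higher in early erythroid-like cells in each library (7127, 14338, 10056 and 7314 against 5228, 11832, 4252 and 6148 CPM). In cells called G2/M it was lower in each library (5527, 12428, 11980 and 5853 against 15901, 34388, 29777 and 16721 CPM). The members' median was smaller in size than that of the step from other to cycling Tc, but Hist3h2a differed by more (1.43 against -1.10) and Hist4h4 by nearly as much (0.75 against 0.99). The members that were lower most were Hist1h3c (log2 -1.26 ± 0.09), Hist1h1c (-1.21 ± 0.09), the H2A gene Hist1h2ai (-1.18 ± 0.10) and the H2B genes Hist1h2bp (-1.14 ± 0.20) and Hist1h2bm (-1.12 ± 0.09). Hist1h1c was at 114, 139, 136 and 175 CPM in early erythroid-like cells and at 275, 357, 253 and 458 CPM in cycling Tc, with no overlap. The libraries of the 2 classes did not overlap for 14 of the 57, against 63.2% of all genes tested, and without the library in the model 4 were higher and 22 lower. Hist1h2ap was lower in all 4 libraries, but by less than they differed from each other (1870, 5937, 4456 and 1028 CPM, log2 -0.51 ± 0.06, adjusted p = 7.54e-06).

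The 4 members higher in early erythroid-like cells were of different types. The linker histone gene Hist1h1a was at 171, 228, 195 and 269 CPM there and at 83.7, 116, 81.7 and 142 CPM in cycling Tc (log2 1.06 ± 0.08, adjusted p = 4.38e-08), so 2 H1 genes of the same cluster, Hist1h1a and Hist1h1c, differed in opposite directions. Hist1h3d rose from 18.5 ± 4.34 to 32.1 ± 7.73 CPM (log2 0.80 ± 0.12), Hist4h4 from 11.5 ± 4.57 to 19.3 ± 4.79 CPM (0.75 ± 0.17) and Hist3h2a from 2.20 ± 1.55 to 6.96 ± 1.44 CPM (1.43 ± 0.36). Of the chaperone list, 11 of 15 were higher, Asf1a by 1.70 ± 0.10 and Nasp by 0.78 ± 0.08, while Asf1b was lower (log2 -1.03). Of the replacement histones, 2 of 10 were higher (H3f3a, 0.65 ± 0.06, and H1fx) and 5 lower (H2afv, -1.15 ± 0.07, among them), and the mRNA list had 4 of 14 higher and 4 lower.

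Along the erythroid stages the members first rose together. Intermediate cells were compared with early ones, and all 59 members tested were higher (29.6% of 9416 genes were), with a median log2 difference of 2.54 against -0.09 over all genes. Every type took part, with medians of 2.48 (H1), 2.54 (H2A), 2.90 (H2B), 2.47 (H3) and 2.50 (H4). Hist1h2ap was at 5811, 28475, 17592 and 2431 CPM in intermediate cells, 28475 CPM being the highest level of any member in any class and library (log2 2.36 ± 0.25, adjusted p = 2.78e-05). Hist1h1b reached 3387, 3941, 3599.8 and 5436 CPM (log2 2.00 ± 0.17). The members that rose most were Hist3h2ba, from 8.13 ± 2.59 to 136 ± 73.3 CPM (log2 4.46 ± 0.32, adjusted p = 7.05e-06), Hist1h3c (3.29 ± 0.29), Hist1h2ab (3.29 ± 0.29) and the H2B genes Hist1h2bn (3.21 ± 0.35) and Hist1h2bp (3.16 ± 0.29). Hist3h2ba was at 62.2 CPM or more in every library of intermediate cells and at most at 31.2 CPM in every library of the other named classes.

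The intermediate class held 2 clusters of unlike makeup. Members were 4.67% of the UMIs in one, of 481 cells in which globin was 26.3% of UMIs, and 1.68% in the other, of 416 cells in which globin was 2.51%. Of the second cluster, 357 cells came from Havcr2fl/fl replicate 2, which was also the library with the lowest sum in this class. The part of this makeup in the library differences was not tested. Supply genes rose with the members: Slbp by 2.01 ± 0.17, Asf1b by 2.49 ± 0.23, H2afx by 2.16 ± 0.24 and H3f3a by 2.39 ± 0.23. Of the replacement histones 7 of 10 were higher and 1 lower, of the mRNA list 6 of 13 and 2, and of the chaperone list 9 of 15 and 1.

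In late erythroid-like cells, which are known to fill with globin mRNA as they leave the cell cycle, the members fell. Globin was 55.8% to 64.6% of their UMIs, against 6.37% to 26.2% in intermediate and 0.0937% to 0.516% in early cells. Without globin in the total, the summed level of members was 9124 ± 3360.3 CPM in early, 47999 ± 31594 in intermediate and 4688 ± 1154 in late cells, so the order of the stages held. Of 46 members tested against intermediate cells, 2 were higher and 40 lower (30.1% and 40.4% of 4833 genes), with a median log2 difference of -2.70 against -0.40 over all genes. With the cluster of Cd3-positive cells in the late class, 0 of 54 were higher and 53 lower. Hist1h2ap was at 94.6, 282, 131 and 125 CPM in late cells (log2 -4.21 ± 0.33, adjusted p = 2.32e-09). Hist1h3b fell from 509.8 ± 485 to 2.95 ± 2.35 CPM (-5.65 ± 0.52), Hist1h2bm from 274 ± 176 to 4.22 ± 5.05 CPM (-4.39 ± 0.56) and Hist1h4h from 1216 ± 873 to 16.5 ± 9.58 CPM (-4.20 ± 0.33). Hist1h4a had 794 UMIs in intermediate cells and 1 in late cells. In late cells 3 of the 5 most abundant members encoded linker histones: Hist1h1e at 290.0, 582, 315 and 642 CPM, Hist1h1c at 189, 339, 218 and 309 CPM, and Hist1h1b at 173, 215, 119 and 444 CPM. The linker share of member UMIs was 46.6% to 64.0% in late and 14.1% to 51.5% in intermediate cells.

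The fall was uneven. Hist1h2bc, an H2B gene, was at 121, 159, 144 and 125 CPM in late cells and at 114, 414, 334 and 75.1 CPM in intermediate cells, so the ranges overlapped. On the scale of the test, which centers on the bulk of genes, it was called higher (log2 1.34 ± 0.27, adjusted p = 0.000301), as was Hist3h2a (1.31 ± 0.39, 15.2 against 20.5 CPM). Both means in CPM were lower in late cells. With a stricter cell filter Hist1h2bc was not called (log2 0.28, adjusted p = 0.446), and no value of Hist3h2a is given here for that setting. With the Cd3-positive cluster the differences of Hist1h2bc and Hist3h2a were -0.99 and -0.97. Hist1h2bc also lost its call without the library in the model (adjusted p = 0.0697) and Hist3h2a without Havcr2fl/fl;E8icre/+ replicate 1 (0.0903). Hist1h1c differed by 0.19 ± 0.17 (adjusted p = 0.334), Hist1h2ac by 0.31 ± 0.29 (0.331), Hist4h4 by 0.59 ± 0.33 (0.121) and Hist1h1e by -0.29 ± 0.18 (0.147), and none of these passed the test in the main fit. In CPM all 4 were nonetheless lower in late cells in each of the 4 libraries, with no overlap for Hist1h1c and Hist1h1e. Hist1h1e was called lower with no filter on low counts (-0.53, adjusted p = 0.0151) and with the stricter cell filter (-0.91, 0.00209). It was also called lower without Havcr2fl/fl replicate 2 (-0.50, 0.00542) and with the Cd3-positive cluster (-1.87, 0.000307). Hist1h1c was called lower with the stricter filter (-0.87, 0.00406) and with the Cd3-positive cluster (-1.81, 0.000542).

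The members that fell less in CPM than other members were often those whose gene models run on past the stem-loop. No such percentage is given for all genes, so the values compare members only. For the 12 members whose model goes on for more than 500 bases, the late level was a median of 12.2% of the intermediate level in CPM (3.04% to 74.1%). For the 28 with up to 500 bases it was 3.50% (0% to 19.1%), and for the 18 without a stem-loop in the model 3.97% (0.282% to 58.6%). Hist3h2a (74.1%), Hist4h4 (40.8%), Hist1h2ac (32.2%), Hist1h1c (31.8%) and Hist1h1e (23.6%) lead the first group, and Hist1h4d (3.04%) ends it. Hist1h2bc (58.6%) and Hist2h2be (41.9%) have no stem-loop in their models, whose ends lie 742 and 2192 bases after the stop codon, but Hist1h2br, also without one and with an end 1803 bases after it, was at 5.05%. These members were picked out after their values were seen, and the values are a description.

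**Figure D5:**
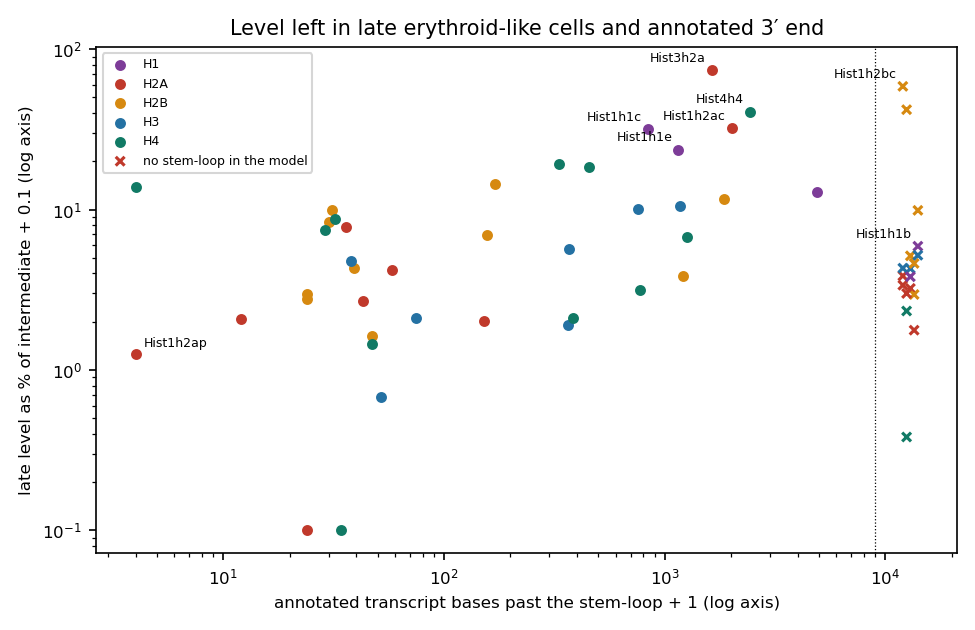
Mean level in late as a percent of that in intermediate erythroid-like cells, plus 0.1, against the annotated transcript bases past the stem-loop, plus 1 (both log axes), with 1 point per member. Crosses right of the dotted line are members without a stem-loop in the model, and their place on the x axis has no meaning; the points over 20% lie beyond 500 bases or among the crosses.

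Late against early cells gave the balance of rise and fall, and this balance depended on the processing. Of 46 members tested, 14 were higher and 7 lower (25% and 39.4% of 8191 genes), with a median of 0.10 against -0.86 over all genes. With DESeq2's size factors the split was 13 to 14, and with DESeq2 itself 13 to 10, settings in which the median of all genes was -1.31 and -1.36. With a stricter cell filter it was 7 to 10, and with the Cd3-positive cluster in the late class 12 to 1. Shares of all genes called are not given for these alternatives. Their splits are read only as a shift from the main fit, not as a result on the members. Hist1h2bc was at 121 to 159 CPM in late and at 42.8 to 80.2 CPM in early cells (log2 3.65 ± 0.24), Hist1h1c at 264 ± 71.6 and 141 ± 25.2 CPM (3.31 ± 0.24), Hist3h2ba at 19.6 ± 8.13 and 8.13 ± 2.59 CPM (3.72 ± 0.39) and Hist3h2a at 15.2 ± 8.71 and 6.96 ± 1.44 CPM (3.48 ± 0.44), all higher in 4 of 4 libraries. Hist1h2ac (3.01 ± 0.27) was higher in CPM in 3 of 4 libraries with overlapping ranges. The log2 differences are on the scale of the test, which centers on the bulk of genes, and lie above the change in CPM. In CPM the mean sum of all members was 9102 in early and 1964 in late cells. At the other end, Hist1h3b (-2.39 ± 0.49), Hist1h2ap (-1.78 ± 0.25), Hist1h2bm (-1.29 ± 0.50) and Hist1h1a (-1.11 ± 0.28) were lower in every library, and Hist1h4a had 993 UMIs in early and 1 in late cells. Without Havcr2fl/fl replicate 2, 14 were higher and 12 lower, and here too the share of all genes called is not given. With the Cd3-positive cluster the differences of Hist1h3b, Hist1h2ap and Hist1h2bm were -0.015, -0.12 and -0.12 and passed no test, and those of Hist1h2bc (1.33), Hist1h1c (1.32), Hist3h2ba (1.61) and Hist3h2a (1.18) were smaller and still called higher. With the stricter cell filter Hist3h2a was no longer called (0.014, adjusted p = 0.992). Hist1h2bm also lost its call with DESeq2 (adjusted p = 0.0822), without integration (0.0723), without Havcr2fl/fl;E8icre/+ replicate 2 (0.314, log2 -0.64), without Havcr2fl/fl replicate 1 (0.0815) and in 1 fit over all classes (0.0674).

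The genes for histone mRNA processing and for chaperones mostly fell to the end. Against intermediate cells, Slbp fell from 663 to 25.3 CPM (log2 -3.11 ± 0.35), Nasp from 273 to 11.9 CPM (-2.79 ± 0.26) and Mcm2 from 230.0 to 9.44 CPM (-2.86 ± 0.32). None of the mRNA or the chaperone list was higher, and 8 of 10 and 11 of 14 were lower. Against early cells, 1 gene of each list was higher (Upf1 and Rbbp4) and 9 lower. Of the replacement histones, 2 were higher and 3 lower of 8 tested against intermediate cells, and 4 were higher and 4 lower of 9 against early cells. H3f3a was at 3276 CPM in late against 4834 CPM in intermediate cells (log2 1.24 ± 0.18 on the scale of the test), while H2afz fell from 2385 to 240.1 CPM (-1.69 ± 0.20).

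Donor genotype was compared in 3 sets of cells. Havcr2, the targeted gene, was at 54.1 and 3.28 CPM in cycling CD8+ Tc of the libraries labelled Havcr2fl/fl;E8icre/+ and at 44.3 and 96.7 CPM in those labelled Havcr2fl/fl. In other CD8+ Tc it was at 66.5 and 10.0 against 58.7 and 125 CPM. The library labelled Havcr2fl/fl;E8icre/+ replicate 1 was thus not below both floxed controls, whereas that labelled Havcr2fl/fl;E8icre/+ replicate 2 was. Whether 3' tags lie outside the deleted part was not tested. In cycling CD8+ Tc, 0 of 55 members tested differed by edgeR (0.011% of 9068 genes did), with 4 members at an unadjusted p under 0.05 (3.12% of all genes) and 0 calls by DESeq2. Hist1h2ap was at 2993 and 8192 CPM in the libraries labelled Havcr2fl/fl;E8icre/+ and at 5923 and 1738 CPM in the others (log2 0.54 ± 0.48), and Hist1h1b at 2062 and 2428 against 1782 and 3523 CPM (-0.27 ± 0.31). The libraries of the genotypes overlapped for both. For 8 of the 55 they did not, a smaller share than the 29.6% of all genes tested. Without Havcr2fl/fl replicate 1, 4 members were called higher in the libraries labelled Havcr2fl/fl;E8icre/+ (0.232% of all genes), and without Havcr2fl/fl;E8icre/+ replicate 1, 3 were (0.15%).

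In other CD8+ Tc, 0 of 30 members tested differed (0.00979% of 10213 genes did), with 2 at an unadjusted p under 0.05 (3.48% of all genes) and 0 calls by DESeq2. When any library but Havcr2fl/fl replicate 2 was left out, 1 member was called lower, as were 0.321%, 0.293% and 0.345% of all genes without Havcr2fl/fl;E8icre/+ replicate 1, its replicate 2 and Havcr2fl/fl replicate 1. In all erythroid-like cells together, in which E8i-cre is not meant to act, 0 of 60 differed (0.028% of 10697 genes did), with 0 at an unadjusted p under 0.05 (4.59% of all genes) and 0 calls by DESeq2. Hist1h2ap was at 2137 and 8691 against 5925 and 1287 CPM there (log2 0.44 ± 0.91). With 2 libraries per genotype, the SE of this difference was larger than the difference itself.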

How the data were processed

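Single-cell 3' libraries were made from spleen cells of 4 samples, 2 per donor genotype. The authors deposited raw UMI counts per gene and barcode, made per the submitters' processing notes with Cell Ranger 6.1.2 on mm10, and these counts were used without further normalization by the authors. Cells needed at least 500 genes and 1000 UMIs, with no more than 10% of UMIs mitochondrial, and 125 doublets called by Scrublet were removed. Cells were clustered with Seurat 5.3.0, leaving the members and the histone lists out of the variable genes. Clusters outside the Tc were named from raised markers, at least 3 and at least 50% of a list. Tc clusters that met this rule for the cycling markers were called cycling, and the others were called other Tc by default. A Tc cluster with raised late erythroid markers stayed unnamed. Clusters outside the Tc that did not meet the rule, or whose top genes or depth went against the name, also stayed unnamed. So did clusters outside the Tc in which over 50% of cells had a Cd3 UMI, a rule set after the clusters were seen, which affected 1 cluster. Counts were summed per library and class and tested with edgeR 4.0.16 in R 4.3.3 (quasi-likelihood test, TMM, filterByExpr, Benjamini-Hochberg over all genes tested, threshold 0.05), with the library as a block between classes and no block between genotypes. The filter kept a gene with enough counts in either group, so a member could enter a comparison through the group where it was higher. DESeq2 1.42.0 was an alternative. SEs were derived from the F statistic. Total gene UMIs per library ranged from 17693991 to 55045903.

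On simulated counts with a dispersion of 0.05, the test of cycling against other Tc (10463 genes) called 60 of 100 genes given a log2 change of 1 and 97 of 100 given one of 2, with 2 false calls. That of genotype in cycling CD8+ Tc (9044 genes) called 11 and 88 of 100, with 5 false calls. The simulated libraries had the same expected share of each unchanged gene, with no library effect. These rates therefore do not carry over to members that differed several-fold between libraries of a genotype, such as Hist1h2ap. The text names the 15 members with the most UMIs and, per comparison, up to 5 higher and 5 lower with the largest change and a mean of at least 5 CPM in a group, and other members that are named were chosen after their values were seen. The members and lists were chosen with earlier results of these data known. Comparisons of intermediate erythroid-like cells and of phase in early erythroid-like cells were added after seeing the data. Genotype labels came from the submitters. Stem-loops were searched in GENCODE M21 transcripts (GRCm38) and motifs in RefSeq promoters.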

Additional observations from a re-analysis of the deposited data

Results flagged for a closer look

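In other Tc, Hist1h1b was at 22.9, 19.1 and 15.2 CPM in 3 libraries and at 89.9 CPM in Havcr2fl/fl replicate 2, farther from the rest than the gap test for 4 values allows. Hist1h1a, another linker histone gene, was at 2.26, 3.18 and 2.20 CPM in the same 3 libraries and at 9.44 CPM in Havcr2fl/fl replicate 2. In late erythroid-like cells Hist1h1a was at 14.1, 15.04, 12.5 and 36.8 CPM, with the same library highest. Of 80 values tested (15 members, 5 classes and the summed levels), 3 were set apart in this way, and chance sets apart about 1 in 20.

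The difference between the S and the G2/M call was itself different between cycling Tc and early erythroid-like cells for 55 members, by the interaction term of edgeR's quasi-likelihood test. The remaining member tested was Hist3h2a, with a difference of differences of -0.52 ± 0.61 (adjusted p = 0.653).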

How the results depend on the processing

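Over the named members and all alternatives run, 1679 values kept their direction and their side of the threshold, 30 gained and 22 lost a call and 26 reversed. Besides these, the share of cells with a member UMI moved in 5 classes when cells were thinned to 2000 UMIs. Class borders also shifted with the settings of the linear algebra library used for clustering, which were therefore fixed. With the Cd3-positive cluster in the late class, a choice made after seeing the data, 13 members differed between late and early cells in place of 21, and the summed late level was 5945 CPM in place of 1964 CPM. In that fit Hist1h4d (0.19), Hist1h2ab (0.041), Hist1h3c (0.22), Hist1h4h (0.12), Hist1h3f (0.049) and Hist1h3e (-0.020) changed sign against early cells, and Hist1h2bc (-0.99), Hist3h2a (-0.97) and Hist1h1c (-1.81) against intermediate cells. The stricter cell filter gave a late level of 3984 CPM. Without the library as a term, 26 members differed between early erythroid-like cells and cycling Tc in place of 41. With no filter on low counts, 2 members were called between genotypes in other CD8+ Tc and 2 in erythroid-like cells. For the genotype fits without this filter, and for fits without the library term or with the Cd3-positive cluster, shares of all genes called are not given. Their counts, here and above, are therefore not read as a result on the members. When libraries were left out in turn, calls between genotypes ranged from 0 to 4 in cycling CD8+ Tc and from 0 to 1 in other CD8+ Tc. Beyond the added cells themselves, the cause of these shifts was not tested. Hist1h3e in late against early cells (0.22) turned to -0.23 with DESeq2, -0.22 with its size factors, -0.16 with no filter, -0.83 with the stricter cell filter, -0.023 without Havcr2fl/fl replicate 1 (range over libraries left out -0.023 to 0.20) and -0.086 in 1 fit over all classes. Hist1h1c in late against intermediate cells (0.19) turned to -0.051 with no filter and to -0.87 with the stricter filter, where it was called lower (adjusted p = 0.00406).

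Between genotypes, Hist1h2ap turned without Havcr2fl/fl;E8icre/+ replicate 2 (-0.46, -1.11 and -1.11 in cycling CD8+, other CD8+ and erythroid-like cells) and without Havcr2fl/fl replicate 2 (-0.10, -0.11 and -0.31). Hist1h1b turned without the latter to 0.30 in cycling and 0.60 in other CD8+ Tc. Over the libraries left out, Hist1h2ap ranged from -0.46 to 1.69, -1.11 to 0.75 and -1.11 to 2.12 in the 3 sets, and Hist1h1b from -0.67 to 0.30 and -2.03 to 0.60 in the first and second. With the replicate block, 0 members were called in each of the 3 genotype comparisons and Hist1h2ap in other CD8+ Tc was at -0.13. Same-numbered samples had deviations correlated at 0.03, -0.081 and -0.27. With 2 samples per genotype these values cannot show whether same-numbered samples belong together. Crossing the numbers in erythroid-like cells also gave 0 calls. Depth limits the members with few UMIs in a class, such as Hist1h3b and Hist1h4a in late cells.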

Other observations

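Some members had their highest level outside the dividing Tc and the erythroid cells. Hist1h2ac, an H2A gene, was at 217, 203, 267 and 275 CPM in basophil or mast-like cells (241 ± 35.9, SD, n = 4), above its mean of 141 CPM in intermediate erythroid-like cells and 42.7 CPM in cycling Tc. The H3 gene Hist1h3d was at 97.6, 124, 181 and 82.5 CPM in the same cells. These cells were few in Havcr2fl/fl replicate 1, with 6 cells.

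In B lineage-like cells, Hist1h1b was at 449 CPM in Havcr2fl/fl replicate 2 and at 10.2, 2.28 and 0 CPM in the other libraries, the last of which held 2 such cells. Hist3h2ba had no UMI in the granulocyte-monocyte progenitor-like cells of any library, a class of 50 cells.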
